A study of Saccharomyces cerevisiae with 48 samples.

Results

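Alpha factor was compared with no alpha factor on 6 of the 48 arrays of the series, those of the budding yeast strains S96, HS959 and SEG8. These 6 were taken because only these 3 strains carry labels for both conditions, 1 array each. All cells were MATa haploids grown in YPAD, a rich glucose medium, to an optical density of 0.6. The 3 treated cultures then swirled for 30 min at 30 °C with 5 µM alpha factor, and the 3 untreated cultures did the same without it. S96 and HS959 are parental lines, and SEG8 is 1 of the segregants, of a cross that the labels call YJM789 X S96. The labels do not state whether the treated and untreated samples of a strain came from separately grown cultures, so the tests measure the spread between these arrays only. The other 42 arrays hold further segregants, all treated, and have no untreated partner.

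Alpha factor is the peptide pheromone secreted by MATalpha cells. In MATa cells it binds the receptor Ste2, and a G protein and a MAP kinase cascade then activate the transcription factor Ste12 and the cell cycle inhibitor Far1. Cells arrest in G1 and grow a mating projection toward a partner, which redirects secretion, the actin cytoskeleton and the cell wall. The mating genes, the G1/S genes and the core histone genes are the textbook response, so the account below is about the other genes of the array.

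Each array carried 2 spots for each of 6256 genes, with 1 probe per gene, and levels are given as log2 intensity relative to the 75th percentile of the array. Levels of different genes are not compared, since probes differ in brightness. Median spot intensity on the 6 arrays was 10265 at the lowest and 16017 at the highest, and at least 99.3% of each array's gene spots exceeded background clearly. All 7 MATa-specific genes rose and were above background on all 6 arrays, and the log2 of their summed linear levels was higher on every treated array (5.06 to 5.77) than on every untreated array (3.75 to 4.28). With S96, HS959 or SEG8 left out 7, 5 and 2 of the 7 were called, and 4 with no strain term. The 3 genes of pheromone arrest, FUS1, PRM1 and FAR1, all rose. Of 5 MATalpha-specific genes 4 also rose, from levels above background on all 6 arrays (4, 4 and 2 with a strain left out, and 2 with no strain term). Of 3 genes of diploid cells entering meiosis, 0 rose and 1 fell. All 4 arrays of S96 and HS959 were on 1 slide and both SEG8 arrays on another, so strain, fitted as a term, also takes up the slide.

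Of 6252 genes tested in limma, 35.6% were called at an adjusted p under 0.05, with 15.1% higher and 20.5% lower after alpha factor, and the median change over all tested genes was -0.04 on the log2 scale. Changes of at least 2-fold were called higher in 3.85% and lower in 3.84% of tested genes. Taking the arrays alone, all 3 treated arrays lay above all 3 untreated arrays for 14.4% of genes and below them for 17.9%. The 7 textbook lists held 162 genes, and outside them 884 genes rose and 1211 fell, with 203 and 190 of these changing at least 2-fold. Many calls need all 3 strains. Leaving out S96, HS959 or SEG8 lowered the share of genes called higher to 11.9%, 6.06% or 4.01%, and the share called lower to 14.3%, 7.41% or 5.74%. The counts of list members below are to be read against these shares, and counts with a strain left out follow that order. At an unadjusted p under 0.05 in limma, 19.8% of tested genes were higher and 26.9% lower with all strains. With a strain left out, in the same order, 19.2%, 14.8% and 13.7% were higher and 25.1%, 19.2% and 21.2% lower, and unadjusted counts are to be read against these. Some list members are also on a textbook list: of the genes named below, AFR1, AXL1, CHS1, CIK1, ERG24, GIC2, KAR3, MID2, PCL2, PGU1 and SCW10 are on the pheromone-induced list, and ELO1, GIC1, GIN4, HSL1, OCH1, PCL1, PCL2 and RTT107 on the G1/S list. Values after ± are the SD of the change over the 3 strains throughout, and adjusted p are limma's.

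**Figure D1:**
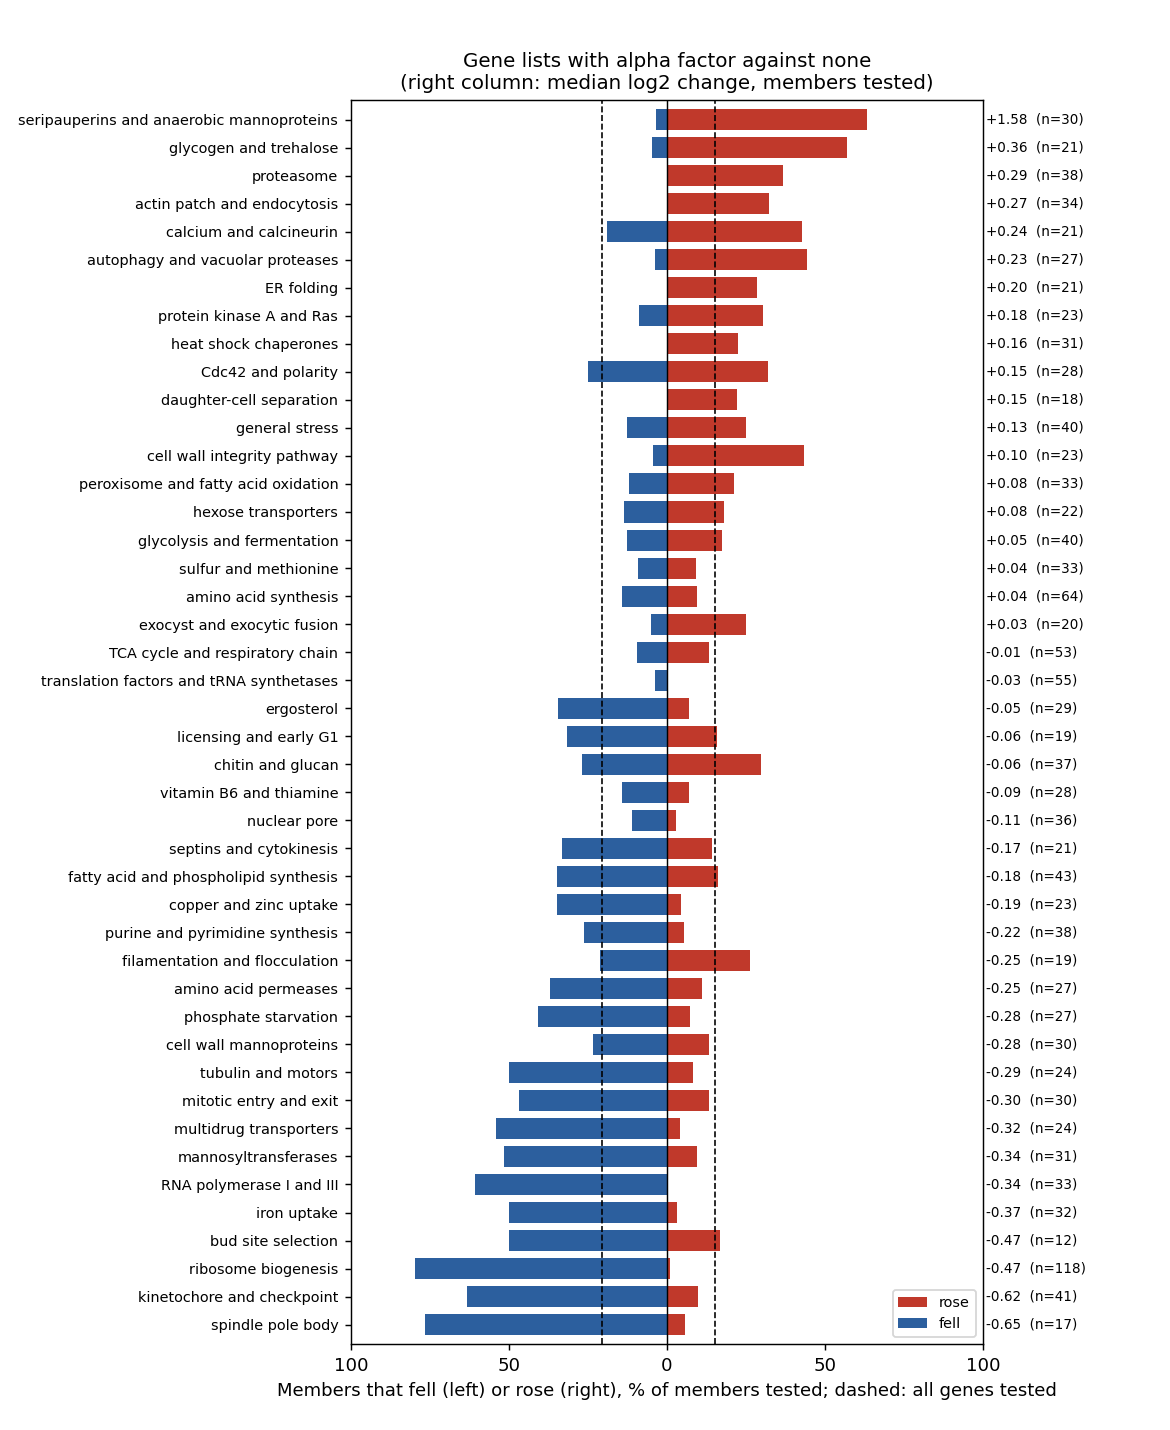
For 44 lists other than the 7 textbook lists, bars give the percentage of tested members that fell (left, blue) or rose (right, red). Some members are also on a textbook list and are counted here. Dashed lines give the same percentage over all tested genes (20.5% lower and 15.1% higher), and the right column gives the median log2 change. Ribosome biogenesis, spindle pole body and kinetochore genes reach farthest to the left, and glycogen and trehalose genes and the seripauperin genes farthest to the right.

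The 15 largest rises outside the textbook lists were led by membrane transporter genes. HXT9, of the hexose transporter family, lay at -3.98, -7.40 and -5.25 without alpha factor in S96, HS959 and SEG8, and at 0.17, -1.37 and -0.86 with it. Its log2 rise was 4.86 ± 1.03 (adjusted p = 0.00318). The treated arrays all lay above the untreated arrays, although the untreated levels themselves spread widely between strains. HXT9 has near-identical relatives whose RNA its probe may also bind: the signal named HXT12 rose by 2.40 ± 0.75, while HXT11 had a change of 0.42 ± 0.64 (adjusted p = 0.266).

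HXT10, of the same family, rose from -7.53, -9.21 and -8.95 to -4.20, -4.39 and -2.96 (4.72 ± 1.33, adjusted p = 0.00574). SUL1, a high-affinity sulfate permease gene, rose from -7.02, -9.03 and -6.65 to -3.56, -3.46 and -2.46 (4.41 ± 1.07, adjusted p = 0.00433). For both, the lowest treated array was above the highest untreated array by more than 2-fold. The sulfate permease paralog SUL2 had a change of 0.13 ± 0.01 (adjusted p = 0.224), and of 33 sulfur and methionine genes 3 rose and 3 fell (2, 1 and 1 rose, and 3, 0 and 0 fell). PUG1, a plasma membrane protein gene of protoporphyrin and heme transport, rose by 3.89 ± 0.84 (adjusted p = 0.00335).

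Genes of regulation and signalling made up much of the rest. BAG7, a GTPase-activating protein gene for Rho1, rose from -6.13, -5.12 and -6.97 to -2.08, -2.06 and -1.60 (4.16 ± 1.16, adjusted p = 0.00566). The treated levels of BAG7 lay closer together than the untreated ones. DAL80, a repressor of nitrogen catabolism genes, rose from -7.51, -7.50 and -7.19 to -4.84, -3.66 and -3.58 (3.37 ± 0.62, adjusted p = 0.00254). MSS11, a transcription activator of the flocculin gene FLO11, rose by 2.58 ± 0.45 (adjusted p = 0.00250), with levels of -2.62, -3.07 and -3.32 untreated and -0.56, -0.28 and -0.45 treated. AFI1, whose product binds the small GTPase Arf3 in polarized growth, rose by 2.74 ± 0.18 (adjusted p = 0.000743). YPT53, an endocytic Rab GTPase gene, rose by 2.80 ± 1.06, a call lost without HS959 (adjusted p = 0.0542) or SEG8 (adjusted p = 0.0538).

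AMS1, the vacuolar alpha-mannosidase gene, had the most even rise of the group. Its level went from -3.56, -3.18 and -3.22 to -0.36, -0.02 and -0.02, a change of 3.18 ± 0.03 or 9.09-fold (adjusted p = 0.000446). TDP1, a DNA repair phosphodiesterase gene, rose by 3.35 ± 0.27. SAE3, known as a partner of the meiotic recombinase Dmc1, rose by 3.81 ± 0.64 from levels between -10.60 and -10.13, near the bottom of the array but above background on all 3 untreated arrays. HES1, a sterol-binding protein gene, rose by 3.59 ± 0.88, APA2, a gene of diadenosine tetraphosphate breakdown, by 2.61 ± 0.61, and SRL4 by 3.71 ± 0.36. Of the 15 rises, 14 kept their call with each strain left out in turn, YPT53 being the exception.

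**Figure D2:**
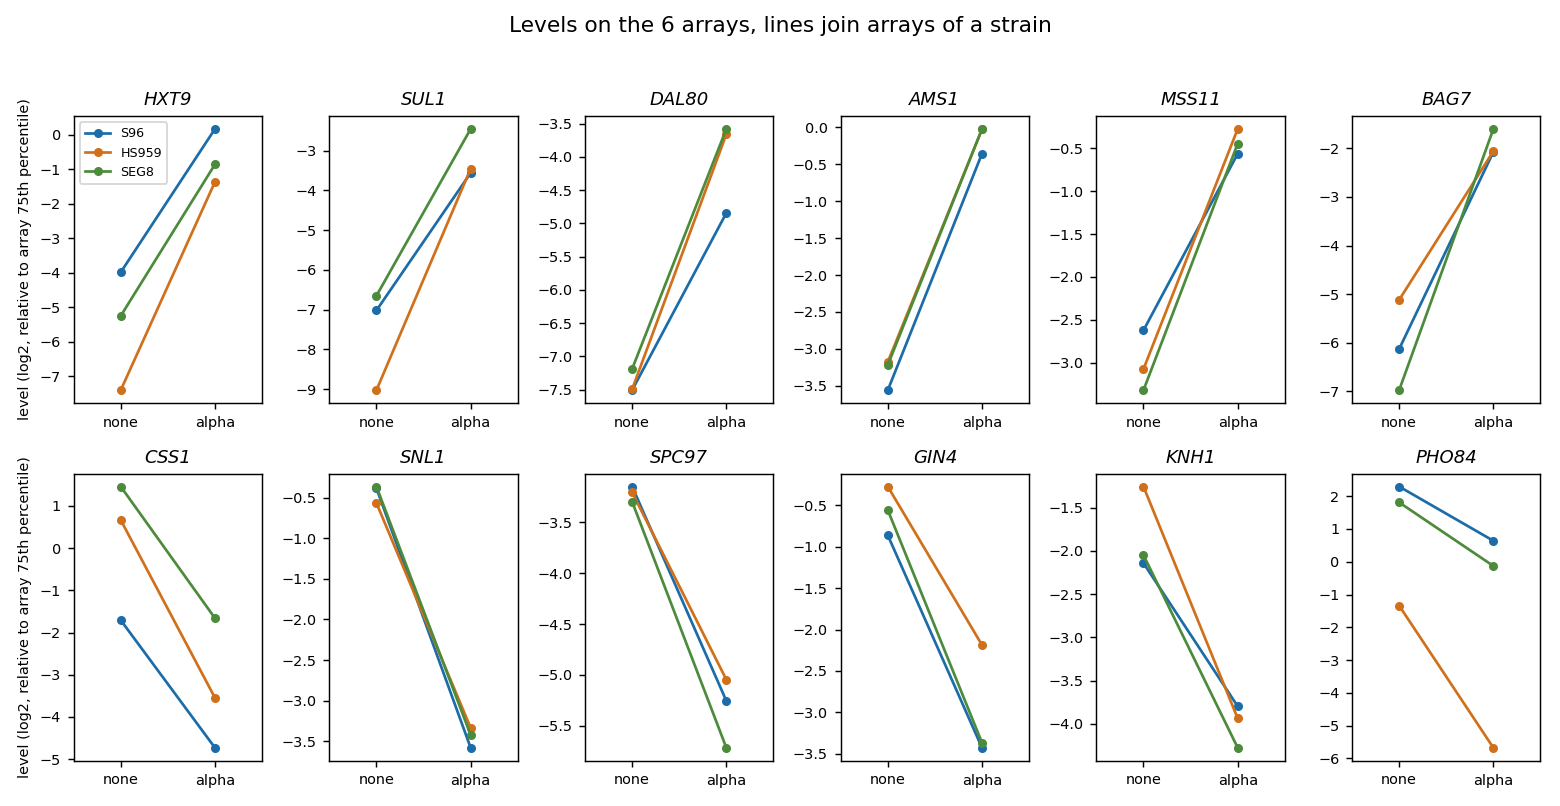
Levels (log2 intensity relative to the 75th percentile of the array) of 12 genes on the 6 arrays, without (none) and with (alpha) alpha factor, with a line for each strain. In all 12 panels the 3 lines run the same way, and HXT9, PHO84 and CSS1 start from untreated levels far apart between strains.

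The 15 largest falls outside the textbook lists mixed wall, mitotic and nutrient genes. CSS1 and HPF1, 2 similar mannoprotein genes whose probes may share signal, moved by -3.45 ± 0.66 (adjusted p = 0.00264) and -3.34 ± 0.80 (adjusted p = 0.00432). CSS1 went from -1.71, 0.67 and 1.46 to -4.73, -3.55 and -1.66, so that treated SEG8 was about as high as untreated S96. Both genes fell within every strain, and neither was called in a fit with no strain term. KNH1, of the beta-1,6-glucan genes, fell from -2.14, -1.26 and -2.05 to -3.80, -3.94 and -4.28 (adjusted p = 0.00445). PLB2, a phospholipase B gene, fell by 2.09 ± 0.11 (adjusted p = 0.000803).

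SNL1, a gene for an Hsp70 co-chaperone linked to the nuclear pore, fell from -0.39, -0.57 and -0.37 to -3.58, -3.33 and -3.42 (adjusted p = 0.000743). SPO16, a meiotic crossover gene, fell by 3.17 ± 0.30 (adjusted p = 0.000881). The mitotic genes were PDS5, a cohesin maintenance factor (fell by 2.26 ± 0.22), and SPC97, of the gamma-tubulin complex, which went from -3.15, -3.20 and -3.30 to -5.25, -5.05 and -5.72. HHO1, the linker histone gene, is not among the core histones and fell by 2.08 ± 0.22. For these 5 genes the treated arrays lay well below the untreated arrays, with a spread between strains far smaller than the change.

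PHO84, the high-affinity phosphate transporter gene, fell by 2.64 ± 1.47, with levels of 2.29, -1.34 and 1.81 untreated and 0.64, -5.68 and -0.13 treated. The 2 conditions overlap across strains, and the call was lost without SEG8 (adjusted p = 0.0842). HSP30, a plasma membrane stress protein gene, fell by 2.15 ± 0.36. It was not called in a fit with no strain term (adjusted p = 0.0915), and with all treated arrays of the series the HSP30 change was 0.0798 and not called. FMP48 fell by 2.15 ± 0.68 and was not called without SEG8 (adjusted p = 0.0575). ATR2, LOH1 and RBH2 moved by -2.50 ± 0.64, -2.32 ± 0.64 and -2.17 ± 0.12. Treated levels of ATR2 (-9.09, -9.30 and -8.98) and LOH1 (-8.36, -9.46 and -10.02) were toward the bottom of the array, though above background. The size of these falls is thus less certain. Of the 15 falls, 13 kept their call with each strain left out in turn.

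Among polarity genes, which direct growth of the bud or of the mating projection through the GTPase Cdc42, changes ran both ways: of 28 members 9 rose and 7 fell (8, 4 and 3 rose, and 6, 5 and 2 fell, with a strain left out). AFR1, which shapes the mating projection and is also on the pheromone list, rose by 3.29 ± 0.54. SPH1, a paralog of the polarisome scaffold gene SPA2, fell by 1.39 ± 0.38 (adjusted p = 0.0534 without SEG8). Of 12 bud site selection genes 6 fell and 2 rose (4, 3 and 1 fell, and 2, 1 and 0 rose). RSR1, the GTPase that marks the bud site, fell by 0.74 ± 0.02 (adjusted p = 0.00484) and BUD3 by 0.83 ± 0.15 (adjusted p = 0.0516 without SEG8). AXL1, which sets the axial pattern and also processes a-factor, rose by 1.19 ± 0.36 (adjusted p = 0.0543 without SEG8).

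Among septin and cytokinesis genes 7 of 21 fell and 3 rose (6, 6 and 4 fell, and 3, 1 and 0 rose). The 3 related septin kinase genes fell together. GIN4 went from -0.86, -0.27 and -0.56 to -3.43, -2.19 and -3.37, a fall of 2.43 ± 0.46 in the mean (adjusted p = 0.00293). HSL1 fell by 1.90 ± 0.24 (adjusted p = 0.00190) and KCC4 by 1.70 ± 0.38 (adjusted p = 0.00447). The septin-associated gene BNI5 fell by 0.85 ± 0.11, and the myosin light chain gene MLC1 rose by 0.63 ± 0.07 (adjusted p = 0.0524 without SEG8).

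Of 34 genes of cortical actin patches and endocytosis 11 rose, 0 fell and 23 did not pass the test, with a median change of 0.27 against -0.04 over all genes. RVS161, a membrane-bending BAR protein gene also needed for cell fusion, rose from 1.09, 0.93 and 1.04 to 2.61, 2.50 and 2.24 (1.43 ± 0.21, adjusted p = 0.00261). CAP2, for a subunit of the actin capping protein, rose by 0.66 ± 0.06 (adjusted p = 0.0534 without SEG8). The count is fragile, at 8, 3 and 1 with a strain left out. Of the 34 members 25 were positive in all 3 strains and 1 was negative in all 3. The share of all genes with 1 sign in all 3 strains was not counted, so such counts are a description only. At an unadjusted p under 0.05 in limma, 16 were higher and 0 lower with all strains, and 22, 5 and 7 higher with a strain left out (shares of all genes as above). Among exocyst and exocytic fusion genes 5 of 20 rose and 1 fell (3, 1 and 1 rose, and 1, 0 and 0 fell). SEC2, the exchange factor gene of the secretory GTPase Sec4, rose by 1.26 ± 0.34 (adjusted p = 0.00718).

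Cell wall genes moved both ways. Of 37 chitin and glucan genes 11 rose and 10 fell (10, 8 and 5 rose, and 8, 5 and 4 fell). CHS1, a chitin synthase gene, rose by 1.83 ± 0.26 (adjusted p = 0.00227), and GFA1, the first enzyme of the chitin precursor pathway, rose by 1.01 ± 0.25 (adjusted p = 0.00715). FKS3, a homolog of the glucan synthase genes, rose by 1.17 ± 0.35 (adjusted p = 0.00847). GAS3, of the glucan-remodelling family, fell by 1.54 ± 0.29 (adjusted p = 0.00342), and its relative GAS5 fell by 0.68 ± 0.14. Among cell wall mannoproteins 7 of 30 fell and 4 rose (9, 5 and 5 fell, and 3, 2 and 1 rose). These shares, 23.3% lower and 13.3% higher, were near those of all genes (20.5% and 15.1%). CWP1 fell by 2.03 ± 0.56 (adjusted p = 0.00598), while its relative CWP2 had a change of 0.02 ± 0.27 (adjusted p = 0.890). YPS1, a cell surface protease gene, rose by 1.84 ± 0.37 (adjusted p = 0.00356).

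In the cell wall integrity pathway, the Rho1 and Slt2 MAP kinase route that answers wall stress, 10 of 23 genes rose and 1 fell (7, 5 and 3 rose, and 1, 0 and 0 fell). Beside BAG7, the Rho1 GTPase-activating protein gene LRG1 rose by 1.18 ± 0.16 (adjusted p = 0.00317) and the sensor gene MID2 rose by 1.06 ± 0.15 (adjusted p = 0.00365). The MAP kinase gene SLT2 rose by 1.06 ± 0.43, with adjusted p = 0.0550 without S96 and 0.0639 without SEG8. Of 21 calcium and calcineurin genes 9 rose and 4 fell (5, 6 and 4 rose, and 3, 1 and 2 fell). RCN2, a calcineurin regulator gene, rose by 1.80 ± 0.18 (adjusted p = 0.00165), CMK2, a calmodulin-dependent kinase gene, by 1.55 ± 0.61 (adjusted p = 0.0126), and CNA1, a calcineurin catalytic subunit gene, by 1.27 ± 0.06. MID1, of the plasma membrane calcium channel, fell by 0.65 ± 0.05 (adjusted p = 0.00695).

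Mannosyltransferase genes, which build the sugar chains of wall proteins in the ER and Golgi, mostly fell: 16 of 31 fell and 3 rose, with a median of -0.34 (12, 6 and 5 fell, and 2, 2 and 2 rose). VRG4, the Golgi GDP-mannose transporter gene, fell by 1.09 ± 0.11 (adjusted p = 0.00270). OCH1, which starts the outer chain, fell by 0.90 ± 0.16 and PMT5, a protein O-mannosyltransferase gene, by 0.89 ± 0.13. MNT4, a putative mannosyltransferase gene, went against these and rose by 1.95 ± 0.17 (adjusted p = 0.00125). KTR2 also rose, by 0.98 ± 0.35 (adjusted p = 0.0126). ER folding genes had 6 of 21 higher and 0 lower, but none of these calls remained when any 1 strain was left out (0, 0 and 0). At an unadjusted p under 0.05 in limma 9 were higher and 0 lower, and 9, 5 and 3 were higher with a strain left out. The largest was CPR5, an ER prolyl isomerase gene, at 0.44 ± 0.20, with adjusted p of 0.0512, 0.147 and 0.117 with a strain left out.

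Spindle genes were mostly lower. Of 17 spindle pole body genes 13 fell and 1 rose (11, 8 and 7 fell, and 1, 0 and 0 rose), with a median of -0.65. SPC29 fell by 1.91 ± 0.46, NUD1 by 1.79 ± 0.18 and BBP1 by 1.46 ± 0.14 (adjusted p = 0.00471, 0.00166 and 0.00193). Of 41 kinetochore and checkpoint genes 26 fell and 4 rose (23, 14 and 13 fell, and 2, 2 and 1 rose), with a median of -0.62. CBF2, which binds centromere DNA, fell by 1.62 ± 0.18, the checkpoint kinase gene BUB1 by 1.60 ± 0.07 and the Aurora kinase gene IPL1 by 1.46 ± 0.22. Some binding partners among the named genes went opposite ways, and were set side by side after their values were seen. Other members of these complexes are not reported here. SLI15, the partner of Ipl1, rose by 1.40 ± 0.11 (adjusted p = 0.00188). In the Ndc80 complex, SPC24 fell by 1.32 ± 0.28 and SPC25 rose by 1.29 ± 0.49 (adjusted p = 0.0719 without SEG8).

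Of 24 tubulin and motor genes 12 fell and 2 rose (7, 5 and 5 fell, and 2, 2 and 2 rose). The kinesin genes CIN8 and KIP1, which push the spindle poles apart, fell by 1.64 ± 0.26 and 1.35 ± 0.18, and STU2, a microtubule polymerase gene, fell by 1.46 ± 0.03. The 2 rises were KAR3 (3.24 ± 0.15) and CIK1 (4.08 ± 0.17), a kinesin and its partner that are part of the mating program. Among genes of mitotic entry and exit 14 of 30 fell and 4 rose (12, 9 and 7 fell, and 5, 2 and 2 rose). The forkhead gene FKH1, a regulator of the G2/M genes, fell by 1.17 ± 0.07 (adjusted p = 0.00225). SPO12, a mitotic exit gene, rose by 1.69 ± 0.28 (adjusted p = 0.00279) and the kinase gene DBF2 by 0.90 ± 0.13 (adjusted p = 0.00467). Among replication licensing and early G1 genes 6 of 19 fell and 3 rose (3, 2 and 2 fell, and 2, 0 and 0 rose), with CDC6, the loader of the replicative helicase, lower by a log2 of -0.94 ± 0.20 (adjusted p = 0.00617). Of 18 daughter-cell separation genes 4 rose and 0 fell (4, 4 and 3 rose; at an unadjusted p under 0.05 in limma, 6 were higher and 1 lower), and SCW11, a glucanase-like gene, rose by 1.61 ± 0.10 (adjusted p = 0.00126). SCW11 in treated HS959 (-1.78) lay below untreated S96 (0.06) and SEG8 (-0.13). Its call was lost with no strain term and with all treated arrays.

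Nutrient uptake genes fell more often than they rose. Among 32 genes of iron uptake 16 were lower and 1 was higher (12, 11 and 8 fell, and 0, 1 and 0 rose), with a median of -0.37. The siderophore transporter gene SIT1 went from -0.53, -0.12 and 0.39 to -2.44, -1.92 and -1.58, so the treated arrays all lay below the untreated arrays (adjusted p = 0.000881). FTR1, the iron permease gene, fell by 1.42 ± 0.15 (adjusted p = 0.00223). Of 23 copper and zinc uptake genes 8 fell and 1 rose (6, 4 and 4 fell, and 1, 0 and 0 rose). CTR1, the copper transporter gene, fell by 1.41 ± 0.33 (adjusted p = 0.00491) and ZRT1, the high-affinity zinc transporter gene, by 1.06 ± 0.14 (adjusted p = 0.00362).

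Among 27 genes of the phosphate starvation response 11 were lower and 2 were higher (6, 9 and 2 fell, and 2, 1 and 1 rose). PHO4, the transcription activator of the phosphate genes, fell by 1.05 ± 0.06 (adjusted p = 0.00254), while PHO81, an inhibitor of the kinase that restrains Pho4, rose by 1.32 ± 0.39 (adjusted p = 0.00787). Of 27 amino acid and peptide permease genes 10 fell and 3 rose (8, 3 and 3 fell, and 2, 1 and 0 rose). The oligopeptide transporter gene OPT1 fell by 1.43 ± 0.31 (adjusted p = 0.00467) and the amino acid permease gene TAT1 by 0.99 ± 0.03 (adjusted p = 0.00261). Multidrug transporter genes had 13 of 24 lower and 1 higher (8, 5 and 5 lower, and 2, 0 and 0 higher). AQR1, an exporter gene, fell by 1.29 ± 0.26 (adjusted p = 0.00450) and RSB1, a sphingoid base exporter gene, by 1.69 ± 0.44 (adjusted p = 0.00564).

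Hexose transporter genes as a list stayed near the background, with 4 of 22 higher and 3 lower (5, 2 and 2 higher, and 3, 2 and 1 lower). Against HXT9 and HXT10, the main low-affinity transporter gene HXT1 fell from 2.08, 1.34 and 1.01 to 0.61, -0.44 and -0.84 (adjusted p = 0.00190). Glycogen and trehalose genes, the carbohydrate stores, mostly rose: 12 of 21 rose and 1 fell, with a median of 0.36 (5, 6 and 1 rose, and 1, 0 and 0 fell). GPH1, glycogen phosphorylase, rose by 1.63 ± 0.48 (adjusted p = 0.00731), from -2.87, -1.39 and -1.18 to -1.79, 0.46 and 0.78. Its treated S96 array lay below the untreated arrays of the other strains. GSY1, a glycogen synthase gene, rose by 1.1 ± 0.40 (adjusted p = 0.0696 without SEG8).

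Among genes of protein turnover more rose than fell, and most did not pass the test. Of 27 autophagy and vacuolar protease genes 12 rose and 1 fell (11, 6 and 4 rose, and 1, 0 and 0 fell). PRB1, vacuolar protease B, rose by 1.14 ± 0.21 (adjusted p = 0.00447), ATG4, the protease that processes Atg8, by 1.06 ± 0.29 (adjusted p = 0.00804), and ATG19, the receptor that brings vacuolar hydrolases including Ams1 to the vacuole, by 1.20 ± 0.31 (adjusted p = 0.0530 without SEG8). Of 38 proteasome genes 14 rose and 0 fell, in a narrow range of changes from 0.15 to 0.62. In all 3 strains 35 of 38 were positive, a count with no share of all genes to set beside it. Only 3, 0 and 0 of the 38 were called with a strain left out. At an unadjusted p under 0.05 in limma 26 of the 38 were higher and 0 lower (19.8% of all genes were higher). With S96, HS959 or SEG8 left out 22, 3 and 17 were higher, where 19.2%, 14.8% and 13.7% of all genes were. The largest rise was UBP6, a proteasome-bound deubiquitinase gene, at 0.62 ± 0.07 (adjusted p = 0.0548 without HS959 and 0.0532 without SEG8). Of 31 heat shock chaperone genes 7 rose and 0 fell (5, 2 and 2 rose; at an unadjusted p under 0.05 in limma, 9 were higher and 1 lower), with BTN2, a protein sorting chaperone gene, higher by 1.05 ± 0.20 (adjusted p = 0.00488).

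General stress genes were mixed, with 10 of 40 higher and 5 lower (8, 7 and 5 higher, and 4, 4 and 2 lower). GAD1, glutamate decarboxylase, rose by 2.23 ± 0.47 (adjusted p = 0.00353), ROQ1 by 2.07 ± 0.25 (adjusted p = 0.00175) and the glutaredoxin gene GRX1 by 1.09 ± 0.16 (adjusted p = 0.00378). Of 23 genes of the protein kinase A and Ras pathway, which couples glucose to growth, 7 rose and 2 fell (4, 4 and 3 rose, and 1, 0 and 1 fell). The growth kinase gene SCH9 rose by 1.1 ± 0.15 (adjusted p = 0.00342). Of 19 filamentation and flocculation genes 5 rose and 4 fell (4, 4 and 2 rose, and 4, 1 and 1 fell). Beside MSS11, the pectin-degrading enzyme gene PGU1 rose by 2.45 ± 0.53 (adjusted p = 0.00368), and MSB2, a signalling mucin gene, fell by 1.01 ± 0.25 (adjusted p = 0.0517 without SEG8).

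Most ribosome biogenesis genes fell, by small amounts. Of 118 ribosome biogenesis genes 94 fell and 1 rose, with a median of -0.47. In all 3 strains 112 were negative, again a count with no share of all genes to set beside it. FAF1, of small-subunit maturation, fell by 1.11 ± 0.25 (adjusted p = 0.00551) and the helicase gene DBP8 by 0.94 ± 0.18 (adjusted p = 0.00564). The count of falls was 62, 25 and 2 with S96, HS959 and SEG8 left out, the last a smaller share than that of all genes. At an unadjusted p under 0.05 in limma 110 were lower with all strains and 104, 87 and 73 with a strain left out, where 26.9%, 25.1%, 19.2% and 21.2% of all genes were lower. The median within each strain was -0.41 in S96, -0.39 in HS959 and -0.58 in SEG8. Of 33 RNA polymerase I and III genes 20 fell and 0 rose (8, 1 and 0 fell; at an unadjusted p under 0.05 in limma, 24 were lower and 0 higher), and TFC1, of the RNA polymerase III factor TFIIIC, fell by 0.70 ± 0.13 (adjusted p = 0.0572 without SEG8). Of 55 translation factor and tRNA synthetase genes 2 fell and 0 rose, with a median of -0.03 (4 lower and 1 higher at an unadjusted p under 0.05 in limma).

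The lists of this paragraph were mostly called near or below the shares of all genes. Somewhat above them were purine and pyrimidine genes, 26.3% lower against 20.5% of all genes. So were peroxisome and fatty acid oxidation genes, 21.2% higher against 15.1%. Of 64 amino acid synthesis genes 6 rose and 9 fell (5, 2 and 2 rose, and 9, 4 and 2 fell). ARG4, argininosuccinate lyase, rose by 1.29 ± 0.07 (adjusted p = 0.00187), and CPA1, of the same arginine route, fell by 0.91 ± 0.19 (adjusted p = 0.00623). Of 38 purine and pyrimidine genes 10 fell and 2 rose (7, 1 and 0 fell, and 2, 0 and 0 rose). Glycolysis and fermentation genes had 7 of 40 higher and 5 lower (6, 3 and 1 higher, and 4, 2 and 2 lower), and genes of the TCA cycle and respiratory chain 7 of 53 higher and 5 lower (4, 1 and 0 higher, and 4, 2 and 0 lower). Peroxisome and fatty acid oxidation genes had 7 of 33 higher and 4 lower (5, 1 and 0 higher, and 2, 1 and 0 lower). Vitamin B6 and thiamine genes had 2 of 28 higher and 4 lower (2, 1 and 1 higher, and 3, 1 and 1 lower), and nuclear pore genes 1 of 36 higher and 4 lower (0, 0 and 0 higher, and 1, 0 and 0 lower).

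More lipid genes fell than rose. Of 29 ergosterol genes 10 fell and 2 rose (7, 3 and 4 fell, and 2, 2 and 1 rose). ERG4, of the last step of the pathway, fell by 1.07 ± 0.22 (adjusted p = 0.00532). ERG24, the sterol C-14 reductase gene, rose from 0.79, 0.77 and 0.48 to 1.89, 2.11 and 1.81, with no overlap between conditions (adjusted p = 0.00247). Of 43 fatty acid and phospholipid genes 15 fell and 7 rose (9, 2 and 3 fell, and 5, 2 and 1 rose). The elongase gene ELO1 fell by 1.30 ± 0.21 (adjusted p = 0.00333) and SUR2, the sphingolipid hydroxylase gene, by 0.90 ± 0.08 (adjusted p = 0.00376). INO2, an activator of phospholipid synthesis genes, rose by 0.97 ± 0.03 (adjusted p = 0.00271).

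Duplicated genes, which mostly arose together in an ancient genome duplication, gave a view of how near relatives moved. Of 137 pairs tested 10 had both members called in opposite directions, 9 had both higher, 19 had both lower, 56 had 1 member called and 43 had none. Over all tested genes 15.1% were called higher and 20.5% lower, so some pairs of unrelated genes would be called in opposite directions too. Whether the 10 pairs exceed that number was not tested, and they are given as a description. The widest split was between the Pho85 cyclin genes PCL2, which rose by 2.44 ± 0.08, and PCL1, which fell by 4.90 ± 0.70. The kinesin partners CIK1 and VIK1, which share the motor Kar3, moved by 4.08 ± 0.17 and -1.08 ± 0.02. The Cdc42 effector genes GIC2 and GIC1 moved by 0.97 ± 0.14 and -3.18 ± 0.46: GIC1 went from -0.97, -0.97 and -1.26 to -3.94, -3.84 and -4.96.

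Other opposite pairs lay in metabolism, the cell wall and, with SSO1 and SSO2, exocytic fusion. GSC2, the glucan synthase gene used under stress and in spores, rose from -1.07, -1.29 and -0.85 to -0.25, 0.19 and 0.72, and FKS1, its counterpart in growing cells, went from 1.19, 1.18 and 0.97 to 0.20, 0.38 and 0.24. The rise of GSC2 had adjusted p = 0.0569 without SEG8. LEU4, the main isopropylmalate synthase gene of leucine synthesis, rose by 1.17 ± 0.29 (adjusted p = 0.00650), and LEU9, the second isozyme gene, moved by -0.78 ± 0.19, with adjusted p = 0.0534 without HS959 and 0.0620 without SEG8. The glycerol-phosphate dehydrogenase genes GPD1 and GPD2 moved by 0.75 ± 0.28 and -0.79 ± 0.18, and GPD1 had adjusted p = 0.0870 without SEG8. In the pairs TOS1 and YMR244W, SCW10 and SCW4, FAA1 and FAA4, and SSO1 and SSO2, at least 1 member lost its call with a strain left out: without SEG8 the adjusted p was 0.113 for TOS1, 0.0827 for SCW10, 0.168 for SCW4, 0.0557 for FAA1, 0.103 for FAA4, 0.115 for SSO1 and 0.113 for SSO2.

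**Figure D3:**
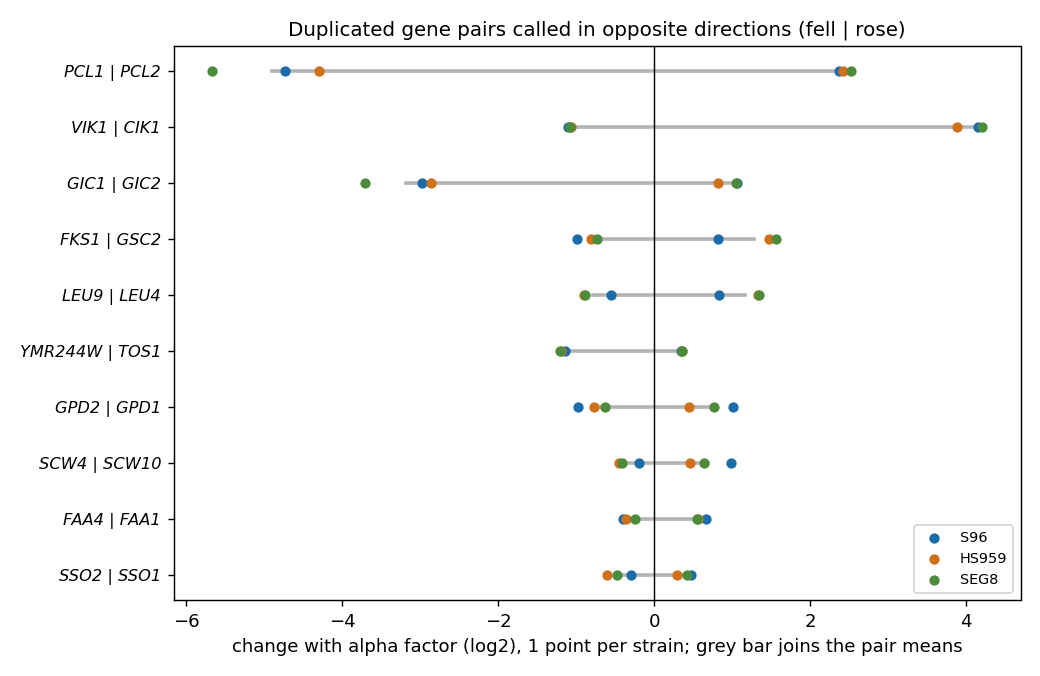
Log2 change with alpha factor of the 10 duplicated gene pairs called in opposite directions, 1 point per strain and gene, with a grey bar between the means of the pair. The 3 strains lie on the same side of 0 for all 20 genes, and PCL1 and PCL2 lie farthest apart.

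The 3 strains did not respond alike everywhere. The range of a gene's change over strains had a median of 0.30 over all tested genes, and 453 genes (7.20%) had a range above 1. With 1 array per strain and condition these ranges have no replicate within a strain and carry no test. Among genes above background on all 6 arrays, the 6 widest ranges were those of PRM8, FLO1, FLO5, FLO9, PAU5 and PAU7, none of which was called. PRM8, for a pheromone-regulated membrane protein, went from -1.32 to 2.82 in S96 and from -1.48 to 2.49 in SEG8, but lay at -10.26 untreated and -11.18 treated in HS959. Its HS959 signal is thus near the lowest on the array in both conditions.

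The flocculin genes, whose cell surface proteins make cells stick to each other, stood out in HS959 alone. FLO9 was at 0.96 in untreated HS959 and at -3.11 in treated HS959, while its levels in S96 were -4.40 and -4.76 and in SEG8 -5.02 and -5.28. FLO1 and FLO5 did likewise, with changes of -3.70 and -3.46 in HS959 and between -0.08 and 0.45 in the other strains. FLO11, named after its values were seen, was at 2.56 untreated and -0.70 treated in HS959, with changes of 0.02 in S96 and -0.06 in SEG8. FLO1, FLO5 and FLO9 are close relatives with repeats, and their probes may share signal.

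The seripauperin (PAU) genes, a subtelomeric family of near-identical genes known from anaerobic and stress conditions, showed the opposite arrangement. Of 24 PAU genes on the array, 21 had changes of at least 2-fold in HS959 and in SEG8, and 0 did in S96. The median change was 0.33 in S96, 2.12 in HS959 and 2.48 in SEG8. PAU5 lay at -2.15, -2.0 and -2.65 untreated and at -1.97, 1.39 and 1.22 treated. In limma 18 of the 24 rose, a count that depends on the strains: of the list of 30 seripauperin and anaerobic mannoprotein genes 19 rose in all, but 22, 1 and 0 with S96, HS959 and SEG8 left out. Because the sequences are so alike, these genes are better read as 1 signal than as separate results. PAU8, PAU17 and PAU23 did not follow the rest, with changes between -0.33 and 0.72 in every strain.

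**Figure D4:**
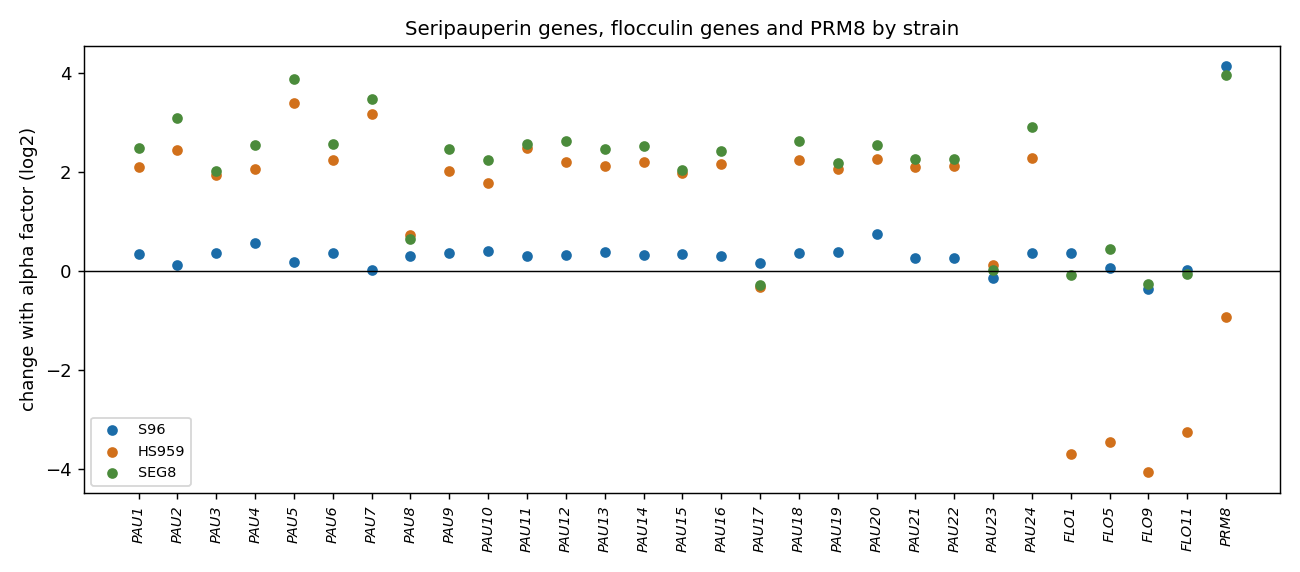
Log2 change with alpha factor in each strain for the 24 PAU genes, 4 flocculin genes and PRM8. For most PAU genes S96 lies near 0 and HS959 and SEG8 near 2, for the flocculin genes HS959 alone lies below -3, and for PRM8 HS959 alone lies below 0.

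The other 42 segregants, all treated with alpha factor, have no untreated partner, so their levels were set beside the same 3 untreated arrays as a description. Of the 15 largest rises, 11 were above all 3 untreated arrays in all 42 segregants, and of the 15 largest falls 10 were below them in all 42. MSS11 lay between -0.93 and 0.04 in the segregants (median -0.41), against -2.62 at most untreated. SNL1 lay between -4.43 and -2.45 (median -3.26), against -0.57 at least untreated. GIN4 (-3.69 to -2.50) and SPC97 (-6.16 to -4.92) were as tightly grouped.

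Other genes spread widely among treated segregants. HSP30 was above all 3 untreated arrays in 18 segregants and below them all in 15. PHO84 ranged from -7.35 to 1.85 and was below all untreated arrays in 29 segregants. CSS1 ranged from -6.51 to 0.10, with 33 segregants below all untreated arrays. DAL80 was above them in 40 segregants and below them in 2, and HXT10 was above them in 38. Over all called genes, 234 of 941 rises (24.9%) and 346 of 1282 falls (27%) had all 42 segregants beyond the 3 untreated arrays, against 247 (3.95%) above and 369 (5.9%) below over all 6252 tested genes. These calls were made against the same 3 untreated arrays, so the shares are a description only. Among changes of at least 2-fold 123 of 241 (51.0%) and 138 of 240 (57.5%) did.

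**Figure D5:**
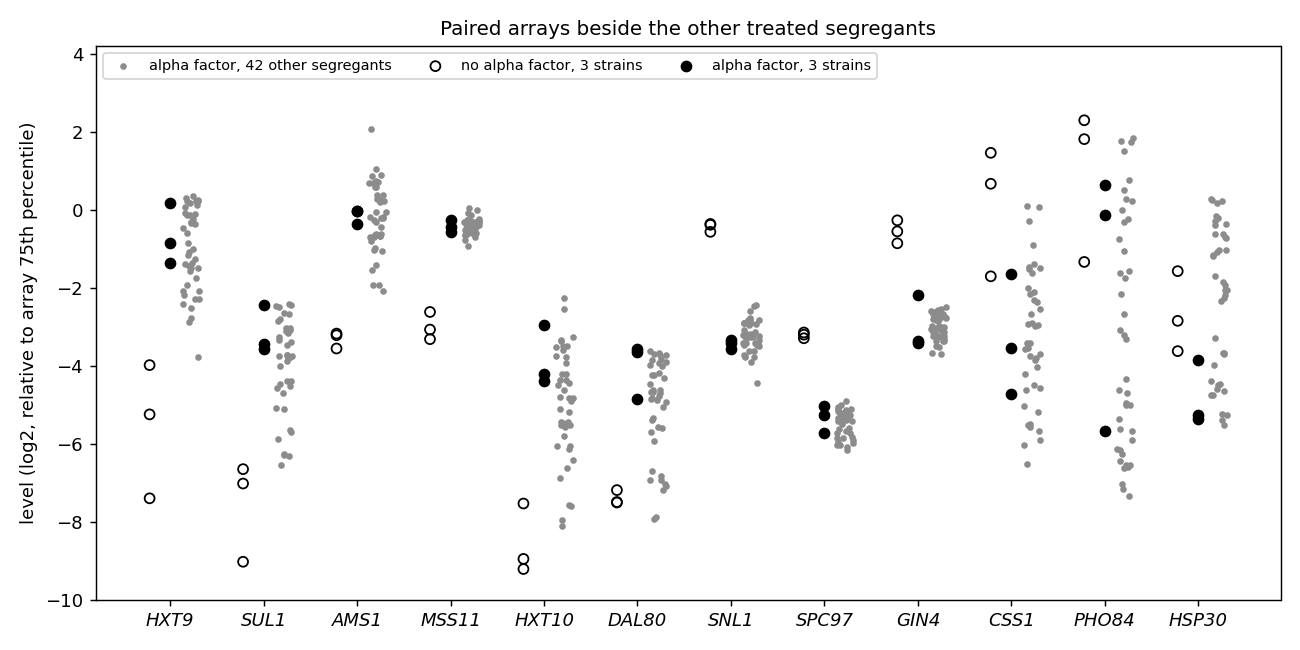
Levels (log2 intensity relative to the 75th percentile of the array) of 12 genes on the 3 untreated arrays (open circles), the 3 treated arrays of the same strains (filled circles) and the 42 other treated segregants (grey). MSS11, SNL1, SPC97 and GIN4 form tight groups of treated arrays away from the untreated ones, and HXT10, PHO84, CSS1 and HSP30 spread over 5 log2 units or more.

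Some changed genes lay beside each other on the chromosome. By the gene order of the reference assembly, used for order alone, 45 of 222 placed genes that rose at least 2-fold (20.3%) had a neighbour that did too, while 434 of 5754 placed genes (7.5%) had such a neighbour. For falls the numbers were 40 of 222 (18%) and 435 of 5754 (7.6%). The systematic names give each gene's strand. Among 1482 adjacent pairs read away from each other, 10 had both genes higher at least 2-fold and 11 both lower, and 3 of these 11 were core histone pairs. Other textbook genes are counted here too: KAR4, DIG2, PRM6, PRM1 and its neighbour ERG24 among the higher pairs, and RTT107 among the lower pairs. Among 1473 pairs read toward each other there were 2 and 2, and 11 pairs there moved in opposite directions by at least 2-fold against 2 of the divergent pairs. Among 2764 tandem pairs 11 had both higher, 8 both lower and 10 moved in opposite directions, which makes 23, 21 and 23 of all 5719 adjacent pairs. The differences between orientations were not tested. Only 1 pair of each kind overlapped in the reference, both of them in tandem.

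Named divergent pairs joined some of the genes above. SPO16, read away from the G1/S gene RTT107, fell by 3.17 ± 0.30 and RTT107 by 2.38 ± 0.31, while SPO12, on the other side of SPO16 and read toward it, rose by 1.69 ± 0.28. PUG1 (3.89 ± 0.84) was read away from TOG1, an oleate-response activator gene (2.54 ± 0.47), and TDP1 (3.35 ± 0.27) from YBR225W (2.87 ± 0.06). KCC4 (-1.70 ± 0.38) lay head to head with AGP1, an amino acid permease gene (-1.02 ± 0.34). RCN2 (1.80 ± 0.18) lay head to head with STE13, for a peptidase that matures alpha factor (1.27 ± 0.27), and ERG24 (1.26 ± 0.13) with the mating gene PRM1 (5.93 ± 0.47). These pairs were picked after their values were seen.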

How the data were processed

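Total RNA was amplified to Cy3-labelled cRNA and hybridised to 1-colour Agilent arrays, 1 sample per array, per the labels' protocols. The deposited intensity is the Cy3 brightness of a spot with background subtracted and spatial trends removed by Agilent Feature Extraction, whose version is 10.5.1.1 per the file headers and 9.1 per the submitters' processing notes. Raw median and local background intensities come as deposited, with no scaling between arrays, and the other columns used are flags for background, saturation and outlying spots, per the file headers. The deposited series matrix equalled the processed intensity in 600576 of 600576 gene-spot cells (relative tolerance 1e-05).

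From these, log2 of the processed intensity minus log2 of the array's 75th percentile over gene spots was averaged over the 2 spots of a gene. Control spots (536) and spots flagged as outliers (6 to 20 per array) did not enter, and saturation was flagged at 0 gene spots. Duplicate spots had a median SD of 0.033 to 0.117 on the log2 scale. A gene was tested if well above background on at least 2 of the 6 arrays (6252 genes, 4 removed). Limma 3.58.1 in R 4.3.3 (lmFit, eBayes, two-sided, Benjamini-Hochberg) fitted treatment and strain. Its error rests on 2 degrees of freedom from the residuals and 2.62 from the prior. The fit was tested on simulated data with independent noise and the same change in every strain. Such data cannot show how the fit handles responses that differ between strains. The pairing comes from the strain names in the labels: deviations of a strain's arrays from their group means correlated across genes with r of 0.88 (S96), 0.897 (HS959) and 0.844 (SEG8). Precision is limited by the number of arrays, 1 per strain and condition.

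The members, the gene lists and the duplicated pairs were chosen with earlier results of these data known. Named genes are the 15 largest rises and falls outside 7 textbook lists (core histone, G1/S, nuclear fusion, both mating-type-specific lists, pheromone signalling and pheromone induction) among called genes with 1 sign in all 3 strains, above background on all 6 arrays and with a standard symbol; up to 4 called members per list in its main direction and 2 in the other; duplicated pairs called in opposite directions; and the 6 widest ranges over strains. A few relatives and neighbours of these genes were named after their values were seen. The rule sets an upper limit, and not all of the 269 genes it allows are reported here. Of 6256 names, 5756 matched the R64 reference table, used for names and gene order only, since the array was designed on an older build; no sequence is printed. The alternatives were strain left out of the fit, quantile and median scaling, normexp background (offset 50, on the raw median signal in place of the mean signal first planned), the series matrix, 2 other filters, a variance trend, each strain left out, and all treated arrays with slide as a term. Reading and drawing used pandas 2.3.3, numpy 2.4.6 and matplotlib 3.10.9 under Python 3.11.15.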

Additional observations from a re-analysis of the deposited data

Results flagged for a closer look

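PRM8, for a pheromone-regulated membrane protein, was higher with alpha factor by 4.14 on the log2 scale in S96 and changed by -0.93 in HS959, which drew attention because 2 strains moved in opposite directions under the same treatment. With 1 array per strain and condition this difference was not tested. Both HS959 levels, -10.26 and -11.18, were close to the bottom of the array, and SEG8 moved like S96, by 3.97. With all strains the mean change was 2.39 and not called (adjusted p = 0.158 in limma). Leaving out S96, HS959 or SEG8 gave 1.52, 4.05 and 1.60, with adjusted p of 0.421, 0.00273 and 0.45 in limma. HS959 was singled out after its values were seen, so the fit without it is a description only.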

How the results depend on the processing

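The counts of 941 genes higher and 1282 lower with alpha factor depended on which strains entered. Without each strain in turn, 251 to 743 genes were higher and 359 to 893 lower. The counts were 251 and 359 without SEG8, which is also the comparison within 1 slide, 379 and 463 without HS959, and 743 and 893 without S96. With no replicate block, that is with the pairing by strain left out of the fit, 320 genes were higher and 337 lower. Quantile scaling, median scaling, normexp, the series matrix, both other filters, the variance trend and the fit to all treated arrays gave 810 to 1056 higher and 1111 to 1384 lower, within 1.5 times of the main counts, and the median change of all genes shifted by less than 0.1. Counts of changes of at least 2-fold moved by less than 1.5 times under every alternative run.

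Of 269 named genes, 135 lost their call with no replicate block, 31, 86 and 126 without S96, HS959 and SEG8, and 66 with all treated arrays besides 2 whose sign turned, and 0 to 6 under the other alternatives. Signs turned only with all treated arrays, for the HSP30 change (0.0798) and the HXT8 change (-0.47), neither of them called there; the cause was not tested. Of 102 list counts, 24, 67 and 82 moved by more than 1.5 times without S96, HS959 and SEG8, 77 with no replicate block, 30 with all treated arrays, 11 with the variance trend, 9 with quantile scaling, 5 with normexp, 2 with median scaling and 0 under the others. Levels near background and small changes, such as those of proteasome and ribosome biogenesis genes, are the least certain.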

Other observations

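Both members were called in the same direction in some of the 137 duplicated pairs tested. Of the 19 pairs with both lower, HXT3 and HXT1, low-affinity glucose transporter genes, moved by -0.62 ± 0.13 and -1.70 ± 0.20, and ELO2 and ELO1, fatty acid elongase genes, by -0.56 ± 0.10 and -1.30 ± 0.21. The sphingolipid synthase genes LAG1 and LAC1 moved by -0.47 ± 0.04 and -0.67 ± 0.19, and the inositol transporter genes ITR1 and ITR2 by -0.37 ± 0.13 and -0.52 ± 0.24. Of the 9 pairs with both higher, the calcineurin catalytic genes CNA1 and CMP2 moved by 1.27 ± 0.06 and 0.39 ± 0.09, and the Cdc42 GTPase-activating protein genes RGA2 and RGA1 by 0.51 ± 0.03 and 0.48 ± 0.11. The mitotic exit kinase genes DBF2 and DBF20 moved by 0.90 ± 0.13 and 0.84 ± 0.38. With 1 strain left out, CNA1, DBF2, ELO1 and HXT1 kept their calls whichever strain it was, and each of the other 10 genes lost its call at least once. Without SEG8, for example, the adjusted p in limma was 0.0638 for HXT3, 0.0571 for ELO2, 0.07 for LAG1, 0.154 for ITR1, 0.0546 for ITR2, 0.123 for CMP2, 0.0652 for RGA2, 0.0634 for RGA1 and 0.103 for DBF20, and without HS959 it was 0.0649 for LAC1. These pairs were chosen after their values were seen, and the difference within a pair was not tested.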
